A study of Mus musculus with 80 samples.

Results

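The prolactin receptor and the JAK-STAT5 route behind it were followed through 10 genes, taken by name from a count table of 27179 genes: Prlr, Prl, Jak2, Stat5a, Stat5b, Cish, Socs1, Socs2, Socs3 and Preb. RNA-seq was performed on the hypothalamus, amygdala, hippocampus, neocortex and cerebellum of C57BL/6 female mice (C57BL/6J in the study's methods) that were either virgin or primiparous, meaning that they had raised a first litter. Primiparous females had been paired with a male at 8 weeks of age, and the labels place the harvest 3 weeks after their pups were weaned, whereas the study's methods give a longer interval. The virgin females were age-matched and were harvested on the same day, and the labels name no altered gene and no drug in either group. Primiparous females had also lived with a male and with pups, so parity and housing cannot be told apart. Of 80 libraries, 77 were analysed here: 8 virgin and 8 primiparous in the hypothalamus and the neocortex, and 7 virgin and 8 primiparous in the amygdala, hippocampus and cerebellum. The same 16 animals gave all regions, so each library is 1 region of 1 animal and the animals are the replicates.

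Prolactin is a hormone made mainly by lactotroph cells of the anterior pituitary, and it reaches the brain with the blood. Its receptor belongs to the class I cytokine receptors, has no kinase of its own and carries the kinase JAK2, which phosphorylates STAT5 so that it enters the nucleus and binds DNA. Cish and the Socs genes are induced by STAT5 or related factors and switch the receptor off again, and in the brain this route is known for its part in maternal care and in the control of prolactin release by hypothalamic dopamine neurons. Preb was named as a factor that binds the prolactin promoter, and the same protein is the mammalian Sec12 that starts COPII vesicles at the endoplasmic reticulum.

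The STAT5 binding motif, TTCNNNGAA, reads the same on both strands, and it was looked for in RefSeq promoter windows (GRCm38.p6) from 250 bases before to 50 bases after a transcription start. Windows were held for 9 of the 10 genes, 13 windows in all, and not for Socs2. The motif was in 3 of the 13 windows, and in 8.3% of all 32851 windows of that length. The windows are shown because they belong to the receptor and to the feedback genes whose RNA levels follow, with the motif in capitals. Cish (plus strand, chr9:107296409-107296708) held 2 copies, which 0.457% of all windows do. Socs3 (minus strand, chr11:117969317-117969616) and the second of 3 Prlr starts (plus strand, chr15:10223656-10223955) held 1 copy each. A match of letters is a description and not a binding site.
Cish: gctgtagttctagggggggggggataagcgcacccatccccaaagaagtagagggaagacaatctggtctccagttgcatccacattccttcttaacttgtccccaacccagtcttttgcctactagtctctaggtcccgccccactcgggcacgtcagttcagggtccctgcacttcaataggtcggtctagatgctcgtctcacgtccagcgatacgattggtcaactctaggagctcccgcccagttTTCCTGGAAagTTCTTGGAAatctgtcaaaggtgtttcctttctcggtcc
Socs3: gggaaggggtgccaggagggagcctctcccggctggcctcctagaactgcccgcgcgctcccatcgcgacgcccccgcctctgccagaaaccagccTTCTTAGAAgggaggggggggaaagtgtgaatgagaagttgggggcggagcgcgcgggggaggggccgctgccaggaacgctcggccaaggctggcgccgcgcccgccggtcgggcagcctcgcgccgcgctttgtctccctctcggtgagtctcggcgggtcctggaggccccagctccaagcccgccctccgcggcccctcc
Prlr: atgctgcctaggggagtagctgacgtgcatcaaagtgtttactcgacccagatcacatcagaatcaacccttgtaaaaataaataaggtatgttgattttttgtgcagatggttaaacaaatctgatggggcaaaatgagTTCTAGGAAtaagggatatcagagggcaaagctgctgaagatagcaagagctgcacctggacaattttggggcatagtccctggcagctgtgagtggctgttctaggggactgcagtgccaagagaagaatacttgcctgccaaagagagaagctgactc

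Values are CPM, the reads of a gene scaled to a common library total, from libraries of 7959192 to 37871854 counted reads. For the test, genes had to reach 5 CPM in at least 8 libraries, which 13016 genes did. Prlr, Prl, Jak2, Stat5a, Stat5b, Cish, Socs2 and Preb passed, whereas Socs1 and Socs3 did not and were tested in a wider table. All 5 measured hypothalamus marker genes, and all 5 genes of each of the cerebellum, hippocampus and neocortex lists, had their highest median in the tissue of that label. Of the 5 amygdala markers only Lhx6 did, with a median of 27.3 CPM in the amygdala against 21.8 CPM in the neocortex, and the other 4 were higher in another region. Among primiparous hippocampus libraries, animal 413 had a cerebellum marker sum of 460 CPM, against a group median of 15.6 CPM. In bulk tissue, fewer cells of a type and less RNA per cell cannot be told apart. The labels call the libraries of a group separate animals, so the tests measure the spread between animals.

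Prlr encodes the receptor (chromosome 15, 10177238 to 10349180, plus strand, GRCm38). Its RNA was highest in the hypothalamus, at 38.3 to 64.7 CPM with a median of 51.9 CPM over 16 libraries. In the amygdala the 15 libraries spanned 4.51 to 23 CPM with a median of 9.27 CPM. The hippocampus had a median of 5.7 CPM, the neocortex 1.36 CPM and the cerebellum 0.924 CPM. No hypothalamus library fell as low as the highest amygdala or neocortex library, but single hippocampus and cerebellum libraries reached 74.3 and 40.9 CPM. Animal 421 gave the highest amygdala value, and the next primiparous library there was at 12.5 CPM. The amygdala library of animal 421 had a hypothalamus marker sum of 16.7 CPM, against a group median of 7.58 CPM. Animal 427 had a higher sum there, at 40.5 CPM, with Prlr at 8.16 CPM. That amygdala library also had a sum of 47.8 CPM over 10 pituitary genes, against a group median of 0.842 CPM. The hypothalamus marker sum of animal 427 was high in the cerebellum too, at 29.1 CPM against a primiparous median of 2.83 CPM. What tissue these sums stand for was not tested.

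**Figure D1:**
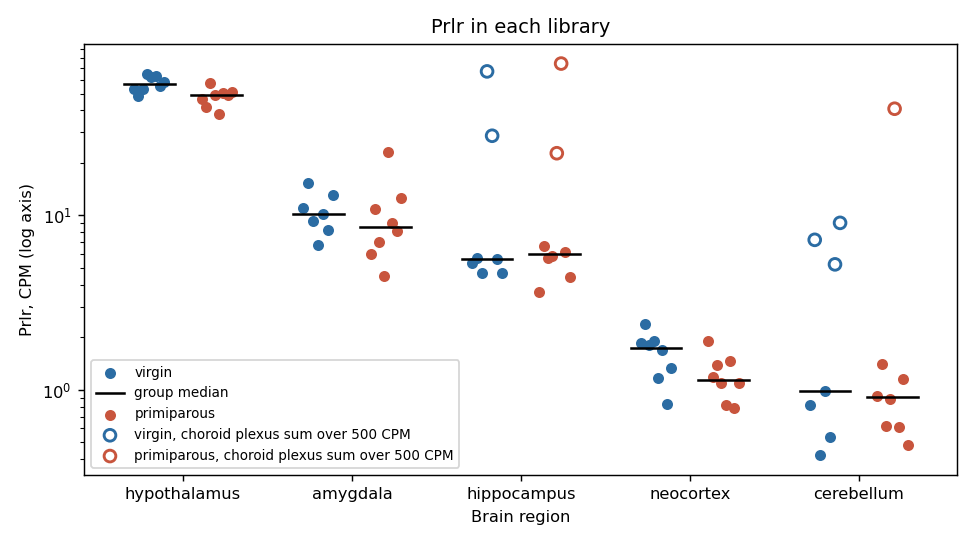
Prlr in CPM on a log axis for each library, by region and state, with the group median as a line and open circles for libraries whose choroid plexus genes summed to over 500 CPM. The hypothalamus points lie between 38.3 and 64.7 CPM, and the open circles stand above the other points of the hippocampus and cerebellum.

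The fit of all 77 libraries put Prlr 2.19 ± 0.43 log2 units (SE) higher in the hypothalamus than in the amygdala (adjusted p = 6.76e-06, edgeR). It was also 1.49 ± 0.41 log2 units higher than in the hippocampus (adjusted p = 0.000907), 3.7 ± 0.48 higher than in the cerebellum and 5.09 ± 0.51 higher than in the neocortex. Amygdala and hippocampus were not told apart (−0.71 ± 0.43 for amygdala minus hippocampus, adjusted p = 0.151). The neocortex came out lower than the cerebellum (−1.4 ± 0.56, adjusted p = 0.0202), although its median was higher. The background is high, since 58.7% (amygdala minus hippocampus) to 81.1% (hypothalamus minus cerebellum) of the genes tested passed between 2 regions. The other pairs gave 71% (hypothalamus minus amygdala), 73% (hypothalamus minus hippocampus), 77.7% (hypothalamus minus neocortex), 62.5% (amygdala minus neocortex), 80.2% (amygdala minus cerebellum), 67% (hippocampus minus neocortex), 78.7% (hippocampus minus cerebellum) and 79.9% (neocortex minus cerebellum).

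The high Prlr values of the hippocampus and cerebellum came from libraries rich in choroid plexus RNA. The choroid plexus is the epithelium of the ventricles that makes cerebrospinal fluid and is known for strong Prlr expression. A sum over 18 choroid plexus genes, led by the transthyretin gene Ttr, was 1013 to 4256 CPM in 4 hippocampus libraries and 111 to 246 CPM in the other 11. In the cerebellum it was 620 to 3862 CPM in 4 libraries and 64.1 to 211 CPM in the other 11, and no library of another region exceeded 167 CPM. Prlr was 22.7 to 74.3 CPM in those 4 hippocampus libraries and 3.66 to 6.7 CPM in the others, with no overlap. In the cerebellum it was 5.24 to 40.9 CPM in the 4 and 0.421 to 1.41 CPM in the others, again with no overlap. The hippocampus libraries were primiparous 421 and 425 and virgin 4487 and 4488, and the cerebellum libraries were primiparous 421 and virgin 409, 4489 and 4491.

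**Figure D2:**
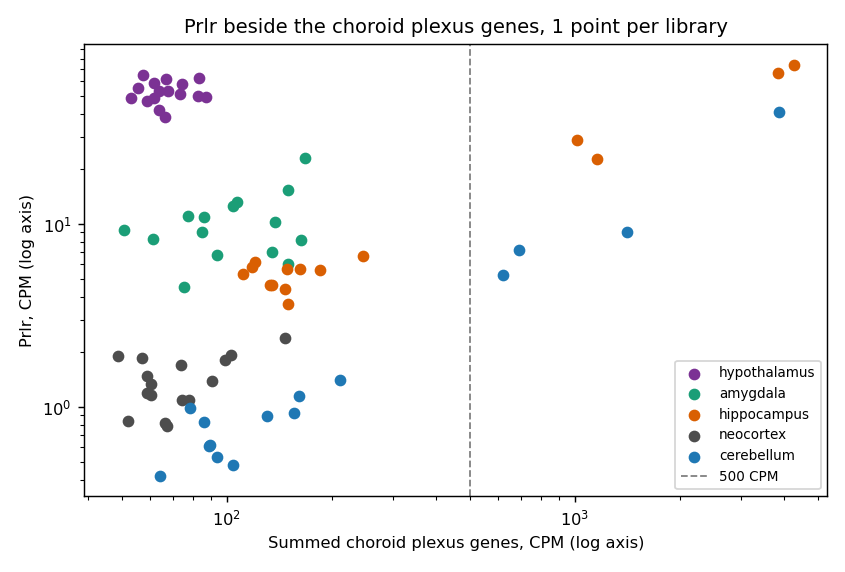
Prlr in CPM against the summed CPM of 18 choroid plexus genes, both on log axes, 1 point per library and 1 colour per region, with a dashed line at 500 CPM. The 4 hippocampus and 4 cerebellum libraries right of the line have the highest Prlr of their regions, and the hypothalamus libraries are high in Prlr at sums of 52.9 to 86.8 CPM.

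In these 8 libraries, Prlr above the median of the other libraries of the region was 19.3 to 31.1 CPM for each 1000 CPM of Ttr above its median in the hippocampus, and 7.04 to 12.4 CPM in the cerebellum. The hypothalamus, highest in Prlr by its median, had 0.0941 to 6.5 CPM of Ttr. Without the 8 libraries, a choice made after seeing the data, the amygdala stood above the hippocampus by 0.96 ± 0.15 log2 units (adjusted p = 6.66e-08, edgeR), where 54% of all genes passed. The neocortex then stood above the cerebellum by 0.95 ± 0.23 (adjusted p = 0.000138), where 77.5% passed. The order hypothalamus, amygdala, hippocampus, neocortex, cerebellum was then the order of the medians and of the fit, and each neighbouring pair differed. With the animal as a block, neocortex minus cerebellum over all 77 libraries was −0.97 ± 0.52 (adjusted p = 0.0839).

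Within the libraries under 500 CPM, Prlr and the choroid plexus sum were related in the cerebellum by Pearson r (n = 11, r = 0.818, permutation p = 0.0021, adjusted over 5 regions 0.0105). By Spearman rho they were not (rho = 0.573, permutation p = 0.071, adjusted 0.355). Without the 2 libraries farthest from the median of the sum, r was 0.478, so the relation rests in part on those. In the neocortex r was 0.583 (n = 16, permutation p = 0.016, adjusted 0.04) with rho = 0.215 (permutation p = 0.424, adjusted 0.706), and r was 0.107 without the 2 farthest libraries, so the relation rests on those. On log2(CPM + 4) values r was 0.502 in the neocortex (permutation p = 0.0465, adjusted 0.116), which no longer passed. In the cerebellum it was 0.78 on that scale (permutation p = 0.00518, adjusted 0.0259). The amygdala gave r = 0.395 and rho = 0.271 (n = 15, permutation p = 0.145 and 0.33), the hippocampus r = 0.379 and rho = 0.1 (n = 11, permutation p = 0.255 and 0.778) and the hypothalamus r = 0.0623 and rho = 0.106 (n = 16, permutation p = 0.818 and 0.697). Without the 2 farthest libraries r was 0.203 in the amygdala, −0.341 in the hippocampus and −0.0495 in the hypothalamus.

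Prl, the hormone gene (chromosome 13, 27057570 to 27065205, plus strand), had a median of 0.318 to 1.02 CPM in every region and varied widely between animals. Of 10 region pairs 2 passed, with the hypothalamus above the hippocampus by 3.43 ± 1.15 log2 units (adjusted p = 0.00619) and above the cerebellum by 2.44 ± 1.06 (adjusted p = 0.0308). Virgin animal 4490 gave a hypothalamus library and none of the other 2 regions. Without it, a choice made after seeing the data, both calls were lost, at 1.81 ± 1.11 (adjusted p = 0.138) and 0.82 ± 1.02 (adjusted p = 0.456). With the animal as a block over all 77 libraries the hippocampus difference passed, at 1.84 ± 0.52 (adjusted p = 0.00155). The cerebellum difference did not, at 0.89 ± 0.48 (adjusted p = 0.0848). In that fit the hypothalamus also stood above the amygdala by 1.61 (adjusted p = 0.00322) and the neocortex by 1.8 (adjusted p = 0.000257). It had 0 reads in 15 libraries, where 3 reads would be 0.0792 to 0.345 CPM, and 1 to 9 reads in 22 more. All 18 libraries with at least 100 Prl reads came from 5 animals. Primiparous animal 427 was the highest of the primiparous libraries in all 5 regions, at 47.9 CPM in the hippocampus to 125 CPM in the amygdala. Virgin animal 4490 was the highest virgin in its 3 regions, with 120 CPM in the hypothalamus, 26.7 CPM in the neocortex and 9.41 CPM in the amygdala, and it gave no hippocampus or cerebellum library here. Virgin animal 4488 had 0 Prl reads in all 5 of its libraries.

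**Figure D3:**
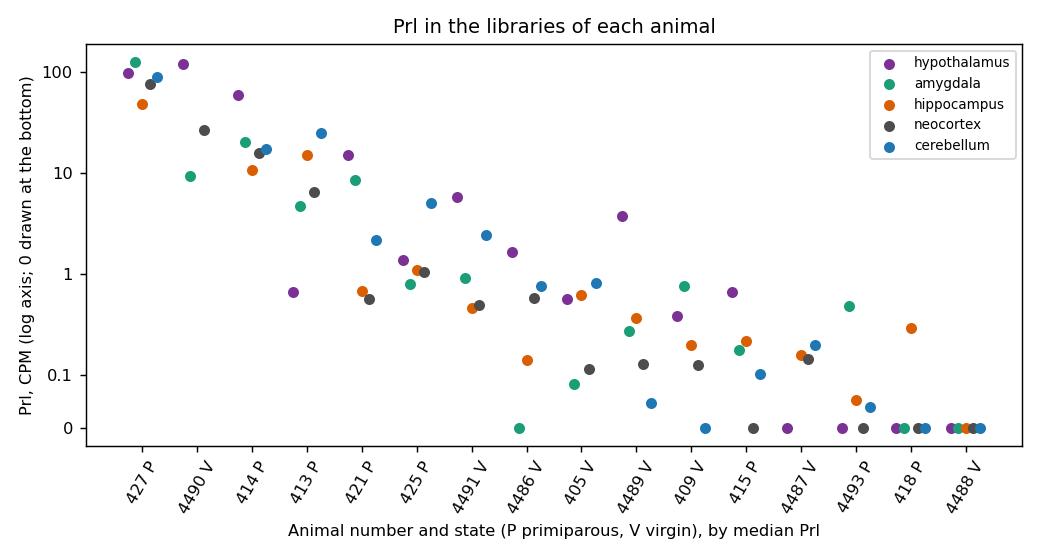
Prl in CPM on a log axis for the libraries of each animal, in order of the animal's median, with libraries at 0 drawn at the bottom and 1 colour per region. Animal 427 lies at 47.9 to 125 CPM in all 5 regions, and animal 4488 is at 0 in all 5.

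Over the animals, log2 Prl (CPM + 0.1) in 1 region was related to that in another in each of the 10 pairs of regions. Pearson r was 0.714 (hypothalamus and hippocampus, n = 15, permutation p = 0.00317) to 0.946 (neocortex and cerebellum, n = 15, permutation p = 1e-05, the smallest the permutations can give). Spearman rho was 0.714 to 0.879, and the largest permutation p adjusted over the 10 pairs was 0.00317 for r and 0.0037 for rho. Without the 2 farthest animals r ranged from 0.366 for hypothalamus and hippocampus to 0.93. These pairs were compared after the values were seen.

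Reads of other pituitary genes, taken as a sum, moved with Prl. The sum of 10 pituitary genes without Prl, led by the growth hormone gene Gh, was related to Prl with r = 0.906 in the hypothalamus (n = 16, permutation p = 0.00015; rho = 0.797, permutation p = 0.00043) and r = 0.982 to 0.999 in the other 4 regions (rho = 0.581 to 0.833; the largest p adjusted over 5 regions was 0.0004 for r and 0.0252 for rho). Without the 2 farthest libraries r was 0.539 in the hypothalamus and 0.8 to 0.981 elsewhere. The pituitary gene Cga did not follow Prl in every hypothalamus library. It was at 17.3 CPM in primiparous animal 425 (Prl 1.38 CPM) and 14.5 CPM in virgin animal 409 (Prl 0.385 CPM). In primiparous animal 414 Cga was at 0.957 CPM (Prl 59.6 CPM). In animals 4490 and 427, the highest in Prl there, Cga was at 14.6 and 8.32 CPM. In the 18 libraries with at least 100 Prl reads there were 0.159 to 0.514 Gh reads for each Prl read, with a median of 0.325. In the hypothalamus the pituitary sum ranged from 2.46 to 64.1 CPM in virgin and from 1.41 to 47.4 CPM in primiparous females. In the amygdala, hippocampus, neocortex and cerebellum it ranged from 0 to 47.8 CPM, and 1 to 5 of the 10 genes were at 0 in all libraries of a group there. The part of pituitary RNA in the Prl levels was not tested beyond these values. Of 25 further prolactin family genes named Prl with a number, 11 had no read in the 77 libraries and 12 had 1 to 6 reads in all. Prl2c3 had 776 reads and Prl2c2 had 273, and reads of these near-identical copies may be shared between them.

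Prl passed the test between states in no region in edgeR. In the hypothalamus virgin libraries were at 0, 1.11 and 120 CPM (lowest, median, highest) and primiparous libraries at 0, 1.02 and 97.3 CPM, and the groups overlapped (log2 fold change 0.4 ± 1.41, adjusted p = 0.864). In the hippocampus, virgin libraries had 0 to 0.625 CPM and primiparous libraries had 0.0572 to 47.9 CPM (5.14 ± 1.48, adjusted p = 0.564). The cerebellum gave 4.75 ± 1.5 (adjusted p = 0.123), the amygdala 3.56 ± 1.48 (adjusted p = 0.368) and the neocortex 1.83 ± 1.39 (adjusted p = 0.584). DESeq2 called Prl in the hippocampus (5.1, adjusted p = 0.0195) and the cerebellum (4.85, adjusted p = 0.0379) and in no other region. It called 0.0922% of all genes in the hippocampus and 3.67% in the cerebellum. Without animal 427 the edgeR differences were −0.59 in the hypothalamus, 1.6 in the amygdala, 3.91 in the hippocampus, 0.09 in the neocortex and 3.46 in the cerebellum. Without animal 4490 they were 3.62 in the hypothalamus (adjusted p = 0.101), 5.72 in the amygdala and 5.62 in the neocortex. The hippocampus and cerebellum, where DESeq2 called Prl, have no library of that animal.

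Parity was then compared within each region. In the hypothalamus Prlr and Jak2 were lower and Preb was higher in primiparous than in virgin females, and these 3 were the only ones of the 8 genes in the main table to pass. There 22.6% of all genes passed, 10.8% higher and 11.8% lower in primiparous females, so 3 of 8 is to be read against that share. With library size as the only scaling, 1785 genes were higher and 1248 lower, against 1405 and 1534 with TMM scaling. For Prlr, virgin libraries were at 48.5, 56.8 and 64.7 CPM (lowest, median, highest) and primiparous libraries at 38.3, 49 and 57.8 CPM. Of the 8 primiparous libraries 7 lay below the virgin mean, and the groups overlapped. The means were 57.2 ± 5.71 CPM (SD, n = 8) and 48 ± 5.92 CPM (SD, n = 8), a log2 fold change of −0.27 ± 0.08 (SE), or 0.827-fold (adjusted p = 0.0147, edgeR).

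Jak2, the kinase bound to the receptor (chromosome 19, 29251828 to 29313080, plus strand), was at 46.6, 53.8 and 60.4 CPM in virgin and at 40.1, 45.1 and 53.9 CPM in primiparous hypothalamus. Again 7 of 8 primiparous libraries lay below the virgin mean and the ranges overlapped. The means were 53.8 ± 4.26 and 46.2 ± 4.24 CPM (SD, n = 8 each), a log2 fold change of −0.24 ± 0.06 (adjusted p = 0.0106). Preb (chromosome 5, 30950853 to 30960361, minus strand) was at 54, 64.2 and 71.3 CPM in virgin and at 70, 73.3 and 79.2 CPM in primiparous hypothalamus. All 8 primiparous libraries lay above the virgin mean, and only the lowest primiparous and the highest virgin values overlapped. The means were 63.5 ± 5.85 and 74 ± 3.24 CPM, a log2 fold change of 0.2 ± 0.06 (adjusted p = 0.0144). Preb overlaps Abhd1 on the other strand, which had a median of 0.275 CPM over all libraries.

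**Figure D4:**
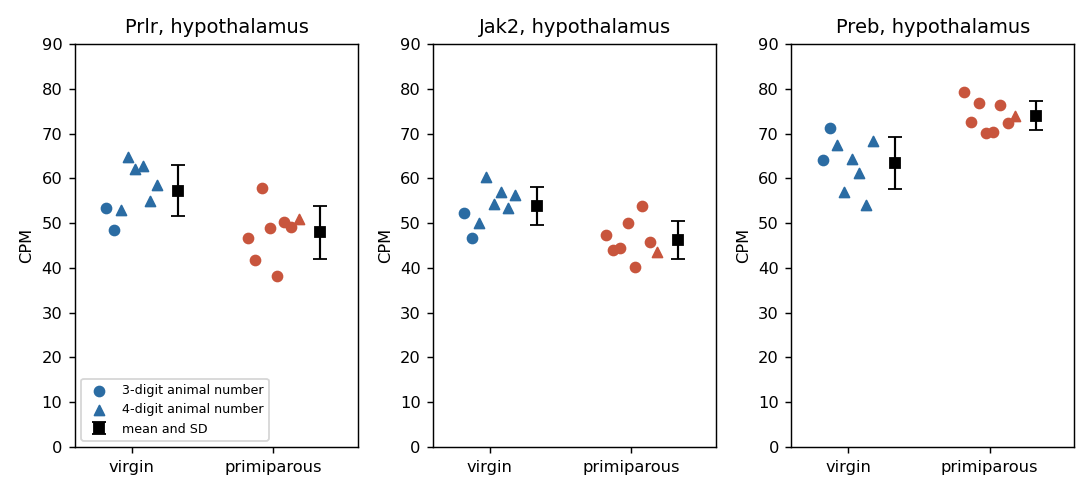
Prlr, Jak2 and Preb in CPM in each hypothalamus library, virgin and primiparous, with circles for animals with 3-digit numbers, triangles for 4-digit numbers and squares with bars for the mean and SD. Prlr and Jak2 sit lower and Preb higher in primiparous females. By their median, the 2 virgin circles lie nearer to the primiparous points than the virgin triangles do, for each of the genes.

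Prlr passed in 8 and Jak2 and Preb in 9 other settings each, 1 fit of all 10 groups among the 9 (adjusted p = 0.00418 for Jak2 and 0.0161 for Preb). With 2 further settings all 3 calls were lost. Animal numbers have 3 digits in 2 virgin and 7 primiparous females and 4 digits in 6 virgin and 1 primiparous females. The 2 number series and the states therefore nearly coincide. What the series stand for is not stated in the sources used here. Among 3-digit animals Prlr was 48.5 and 53.3 CPM in virgin females and 38.3 to 57.8 CPM (median 49 CPM) in primiparous females. Among 4-digit animals it was 52.9 to 64.7 CPM in virgin females and 50.9 CPM in the primiparous female. Jak2 was 46.6 and 52.3 CPM against 40.1 to 53.9 CPM among 3-digit animals, and 50 to 60.4 CPM against 43.6 CPM among 4-digit animals. Preb was 64.1 and 71.3 CPM against 70 to 79.2 CPM, and 54 to 68.3 CPM against 74 CPM. With the series as a covariate the log2 fold changes were −0.15 ± 0.09 for Prlr (adjusted p = 0.443), −0.19 ± 0.08 for Jak2 (adjusted p = 0.292) and 0.16 ± 0.07 for Preb (adjusted p = 0.292), and 3 of the 13016 genes passed.

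With each library's trend over gene length and GC content removed, Prlr was at −0.03 ± 0.06 (adjusted p = 0.836), Jak2 at −0.1 ± 0.05 (adjusted p = 0.316) and Preb at 0.14 ± 0.05 (adjusted p = 0.127), and 360 of 12632 genes passed. Prlr is long and poor in GC, with 15339 exon bases and 39.4% GC. The medians of the genes tested were 4737.5 exon bases and 49.9% GC. Exon bases are the exons of all annotated transcripts of a gene merged, and can exceed the length of a single RNA. GC is that of the longest transcript. Jak2 has 5030 exon bases and 44.3% GC, and Preb has 7209 and 52%. Sums of marker genes of other tissues overlapped between the states of the hypothalamus, with higher medians in primiparous females for several. Blood genes spanned 25.2 to 53.5 CPM (median 36) in virgin and 32 to 103 CPM (median 43.6) in primiparous females, and hippocampus genes 38.2 to 46 CPM (median 41.7) and 41.7 to 56.1 CPM (median 46.8). The pituitary medians were 4.75 and 11.8 CPM, and the part of these in the parity differences was not tested. The choroid plexus medians were 62.9 and 69.9 CPM, and with that sum as a covariate Prlr was at −0.29 ± 0.08 (adjusted p = 0.0124). Ttr was only 0.0941 to 6.5 CPM in the hypothalamus, where the sum was 52.9 to 86.8 CPM, so other listed genes made up most of it. The part of choroid plexus RNA in the Prlr difference was therefore not tested by that fit. In the fit of all 10 groups, which shares a gene's spread across regions, Prlr was at −0.27 ± 0.55 (adjusted p = 0.762). Leaving out each hypothalamus library in turn kept the 3 calls in all 16 fits.

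The remaining genes of the route did not pass the parity test in the hypothalamus. Stat5b was at 87.7, 94.9 and 102 CPM in virgin and 74.3, 99.7 and 102 CPM in primiparous females (−0.02 ± 0.06, adjusted p = 0.813). Stat5a was at 3.31, 4.58 and 5.83 CPM and 2.08, 5.26 and 6.65 CPM (0.09 ± 0.19, adjusted p = 0.741). Of the feedback genes, Cish had means of 7.82 ± 1.68 and 8.23 ± 1.95 CPM (SD, n = 8 each; 0.05 ± 0.15, adjusted p = 0.827). Socs2 had 6.46 ± 1.71 and 5.4 ± 1.84 CPM (−0.28 ± 0.2, adjusted p = 0.318). In the wider table, where 18.4% of 15129 genes passed, Socs1 was at 2.11 ± 0.6 and 2.12 ± 0.85 CPM (adjusted p = 0.968) and Socs3 at 3.19 ± 0.52 and 2.69 ± 1.14 CPM (adjusted p = 0.425).

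In the amygdala, hippocampus, neocortex and cerebellum none of the 8 genes passed in edgeR, where 0%, 0%, 0% and 0.707% of all genes did (in the cerebellum 0.599% higher and 0.108% lower). At an unadjusted p under 0.05 there was 1 of the 8 in the amygdala, 1 in the hippocampus, 0 in the neocortex and 1 in the cerebellum, Prl each time, beside 11.9%, 7.38%, 9.8% and 19.5% of all genes. limma-voom called 0 in these regions and DESeq2 called Prl as given above. Socs1 and Socs3 did not pass in the wider table of these regions, where 0% of 15026, 0% of 15374, 0% of 15451 and 0.376% of 15141 genes passed. Prlr was at −0.05 ± 0.28 in the amygdala, −0.09 ± 0.86 in the hippocampus, −0.38 ± 0.22 in the neocortex and 0.69 ± 1.18 in the cerebellum. Without the libraries rich in choroid plexus genes it was 0.09 ± 0.16 in the hippocampus and 0.38 ± 0.39 in the cerebellum (adjusted p = 0.835 and 0.677). In no region were the virgin and primiparous ranges of 1 of the 8 genes apart, against 0.884% of all genes in the hypothalamus, 0.146% in the amygdala, 0.0845% in the hippocampus, 0.0154% in the neocortex and 0.323% in the cerebellum.

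**Figure D5:**
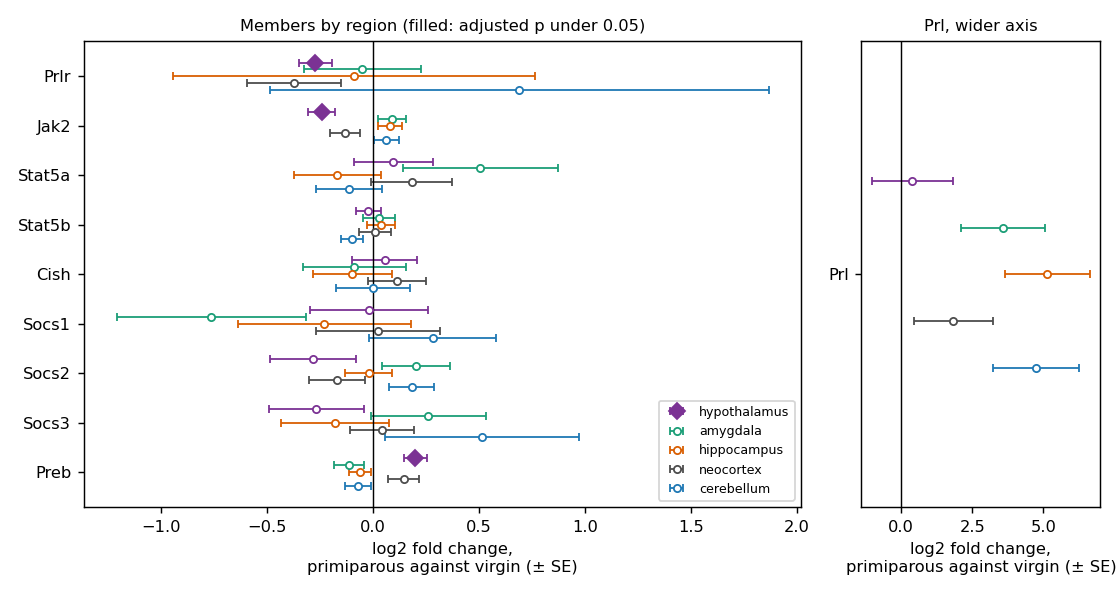
Log2 fold change of primiparous against virgin females with its SE for the 10 genes in each region, filled diamonds where the adjusted p was under 0.05, with Prl on a wider axis of its own. The filled points are Prlr, Jak2 and Preb in the hypothalamus, at −0.27, −0.24 and 0.2.

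Whether the hypothalamus differed from the other regions was tested directly as an interaction. The parity effect on Jak2 was 0.33 ± 0.09 log2 units more negative in the hypothalamus than in the amygdala (−0.33 as a difference, adjusted p = 0.00929). It was −0.34 ± 0.09 against the hippocampus (adjusted p = 0.00806) and −0.31 ± 0.09 against the cerebellum (adjusted p = 0.0132). The effect on Preb was 0.32 ± 0.09 more positive than in the amygdala (adjusted p = 0.0107), 0.25 ± 0.08 more than in the hippocampus (adjusted p = 0.0206) and 0.26 ± 0.08 more than in the cerebellum (adjusted p = 0.0265). Of all genes 18.2%, 17.2% and 15.5% passed in these 3 comparisons. Against the neocortex no gene passed (0%), with Jak2 at −0.11 (95% interval −0.3 to 0.08) and Preb at 0.06 (−0.12 to 0.24).

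For Prlr no difference in parity effect between the hypothalamus and another region passed, with differences of −0.22 (95% interval −0.79 to 0.34) for the amygdala, −0.21 (−1.8 to 1.38) for the hippocampus, 0.11 (−0.3 to 0.51) for the neocortex and −0.77 (−2.71 to 1.18) for the cerebellum. In 1 fit of all 10 groups, Preb against the hippocampus was at 0.26 with an adjusted p of 0.0523 and no longer passed. With the animal as a block, Preb against the cerebellum had an adjusted p of 0.0538. Without the cerebellum libraries rich in choroid plexus genes, Jak2 was at −0.26 (adjusted p = 0.0879) and Preb at 0.24 (adjusted p = 0.117) against the cerebellum.

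The levels of the other genes by region gave each its own order. Stat5b (chromosome 11, 100780731 to 100850724, minus strand), the more abundant STAT5 gene, had medians of 96.8 CPM in the cerebellum, 96.1 CPM in the hypothalamus, 46.1 CPM in the amygdala, 38.2 CPM in the neocortex and 22.7 CPM in the hippocampus. The cerebellum and hypothalamus did not differ (0.03 ± 0.04, adjusted p = 0.593), and each other neighbouring pair did. Stat5a, its close neighbour on the plus strand (100859351 to 100885169), had medians of 5.24, 4.92, 2.62, 2.09 and 1.28 CPM in the cerebellum, hypothalamus, neocortex, hippocampus and amygdala. Here too only the cerebellum and hypothalamus did not differ among neighbours (adjusted p = 0.338). Stat5a overlaps Stat3 at its end on the other strand, which had a median of 57.8 CPM over all libraries, far above Stat5a, and whether reads were counted by strand is not given in the sources used here.

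Jak2 hardly varied, with medians of 43.8 CPM in the hippocampus to 54.2 CPM in the neocortex, and 6 of 10 region pairs differed. Preb had medians of 57.2 CPM in the hippocampus to 75.3 CPM in the cerebellum, and 7 of 10 pairs differed. With the animal as a block, Preb in the amygdala minus the cerebellum was at −0.08 ± 0.04 (adjusted p = 0.0838) and no longer passed. With library size as the only scaling, the median of all genes moved by 0.11 to 0.15 log2 units in 6 pairs. Jak2 in the hypothalamus minus the hippocampus then went from −0.0042 to 0.14, and in the amygdala minus the cerebellum from 0.12 to −0.01.

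Cish (chromosome 9, 107296026 to 107302784, plus strand), which blocks STAT5 docking to the receptor, had medians of 8.04 CPM in the hypothalamus, 6.04 CPM in the neocortex, 3.26 CPM in the amygdala, 2.61 CPM in the cerebellum and 2.59 CPM in the hippocampus. Neighbours in this order differed (adjusted p = 0.0379 for hypothalamus against neocortex, 0.0541 without animal 4490), except the cerebellum and hippocampus (adjusted p = 0.0511). Socs2 (chromosome 10, 95385362 to 95417180, minus strand), known for restraining growth hormone signalling, was lowest in the hypothalamus at 5.97 CPM. Its medians were 13.7 CPM in the hippocampus, 12.9 CPM in the neocortex, 11 CPM in the amygdala and 9.08 CPM in the cerebellum, where the hippocampus and neocortex did not differ (adjusted p = 0.275) and the other neighbours did.

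The 2 scarce feedback genes were compared in a table of 16866 genes. Socs1 (chromosome 16, 10782240 to 10785536, minus strand) was highest in the hypothalamus at a median of 2.1 CPM, against 1.16 CPM in the cerebellum (adjusted p = 0.00265), and 0.957, 0.858 and 0.677 CPM in the amygdala, neocortex and hippocampus, none of which differed from its neighbour. Socs3 (chromosome 11, 117966079 to 117970047, minus strand), the feedback gene of STAT3 as well, had medians of 3.37 CPM in the amygdala, 3.04 CPM in the hypothalamus and 2.34 CPM in the neocortex. It was lower at 1.18 CPM in the cerebellum and 0.795 CPM in the hippocampus, and only the step from the neocortex to the cerebellum passed (adjusted p = 4.72e-08). Among those genes, 65.8% (hypothalamus minus amygdala), 67.4% (hypothalamus minus hippocampus), 72.6% (hypothalamus minus neocortex), 76.1% (hypothalamus minus cerebellum), 52.4% (amygdala minus hippocampus), 55.5% (amygdala minus neocortex), 74.9% (amygdala minus cerebellum), 59.3% (hippocampus minus neocortex), 73.3% (hippocampus minus cerebellum) and 74.8% (neocortex minus cerebellum) passed.

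Per kilobase of exon, the median levels in the hypothalamus were 17.4 CPM for Stat5b, 9.94 CPM for Jak2, 9.74 CPM for Preb and 3.39 CPM for Prlr. The feedback genes lay lower on that scale, with 1.25 CPM for Cish, 1.05 CPM for Socs3, 0.721 CPM for Socs1 and 0.627 CPM for Socs2, beside 0.69 CPM for Stat5a. In the neocortex Prlr was at 0.0885 CPM per kilobase, beside 10.8 CPM for Jak2 and 6.89 CPM for Stat5b. The lengths are the merged exons of all transcripts of a gene, so levels can come out too low and the order is approximate.

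Genes around the route were taken from 7 lists of 106 genes, 93 of which were tested. In the hypothalamus 18 of them passed (19.4%), 7 higher and 11 lower in primiparous females, beside 22.6% of all genes. The lists were written with earlier results of these data known. Adaptors and kinases downstream of the receptor had 9 of 26 genes called, 3 higher and 6 lower, with a median log2 fold change of 0.01 beside 0.01 over all genes. Pik3r1, a subunit of PI3 kinase, was lower, at 140 ± 7.59 CPM in virgin and 125 ± 11.9 CPM in primiparous females (SD, n = 8 each; −0.19 ± 0.06, adjusted p = 0.0195). Src, a tyrosine kinase, was higher, at 100.1 ± 8.05 and 116 ± 9.38 CPM (0.19 ± 0.06, adjusted p = 0.0196).

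Of 7 other JAK and STAT genes tested, Tyk2 was called, at 13.5 ± 1.1 and 17.2 ± 4.09 CPM (0.33 ± 0.11, adjusted p = 0.0379), and limma-voom called 0. Of 13 class I cytokine receptors, Csf2ra was higher (18.2 ± 3.29 and 25.8 ± 4.78 CPM, 0.47 ± 0.11, adjusted p = 0.00677) and Il13ra1 lower (20.1 ± 2.71 and 15.1 ± 2.88 CPM, −0.43 ± 0.11, adjusted p = 0.0103). The list median was 0.11. Of 16 other negative regulators, Sh2b3, an adaptor that restrains JAK2, was higher (0.34 ± 0.09, adjusted p = 0.0103) and Socs5 lower (−0.13 ± 0.04, adjusted p = 0.0319), with a list median of −0.01.

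Of 8 STAT5 output genes tested, Igf1, which encodes insulin-like growth factor 1, was lower, at 7.29 ± 1.61 CPM in virgin and 4.16 ± 1.24 CPM in primiparous females (−0.84 ± 0.19, adjusted p = 0.00522), and the list median was 0.07. Of 13 partners of Preb in the COPII coat, Sec24a (−0.42 ± 0.08, adjusted p = 0.00209) and Sec23a (−0.17 ± 0.05, adjusted p = 0.0256) were lower, opposite in sign to Preb, with a list median of 0.02. Of 10 genes that act on pituitary prolactin release, the neuropeptide gene Gal was higher (28.7 ± 3.24 and 37.6 ± 7.77 CPM, 0.36 ± 0.1, adjusted p = 0.0167), with a list median of −0.03. With the length and GC correction 1 of the 93 genes passed, Sec24a (adjusted p = 0.0377), and with the number series as a covariate 0 passed.

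In the other 4 regions none of the 93 genes passed in edgeR. At an unadjusted p under 0.05 there were 10 in the amygdala, 5 in the hippocampus, 11 in the neocortex and 14 in the cerebellum, beside the same shares of all genes as above (11.9%, 7.38%, 9.8% and 19.5%). limma-voom also called 0 in each, and DESeq2 called 3 in the cerebellum (3.23%, beside 3.67% of all genes) and 0 in the others. With the length and GC correction 2 of the 93 genes passed in the cerebellum (2.15%), both higher, where 411 of 12632 genes passed. That correction gave 0 in the amygdala, hippocampus and neocortex.

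The genes most like Prlr over all 77 libraries, by Pearson r of log2(CPM + 4), were Cspg4b (0.911), Rsph4a (0.892), Map3k15 (0.879), Ap1s2 (0.878) and Scube3 (0.875). These libraries share regions and animals and are not independent. All 5 had their highest median in the hypothalamus, such as 11.1 CPM for Cspg4b and 49.3 CPM for Ap1s2. This follows in part from how they were picked, since Prlr was highest there too. None of the other genes of the route ranked near them, with Cish at r = 0.433 and Socs2 at −0.516 over the same libraries. Within the 16 hypothalamus libraries, after the mean of each state was taken out, the nearest included Rab9b (0.898), Dpy19l4 (0.882), Ero1l (0.881) and Chic1 (0.871). Jak2 followed Prlr there with r = 0.644, while 683 genes had a higher r, and Preb had r = −0.125. Without the 8 libraries rich in choroid plexus genes the first 5 were Dlk1 (0.98), Ahi1, Igsf1, Tacr3 and Gprasp2 (0.976), over 69 libraries.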

How the data were processed

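Poly(A) RNA of each region was sequenced by the authors as single-end reads, and the submitters' processing notes name HISAT2, featureCounts and the mm10 build; the strand setting is not given in the sources used here. The first deposited table gives raw counts of reads for each gene. A second deposited table holds log2 values, which equal log2(count / size factor + 4) within 5e-05, and it served for 1 alternative only. Genes that reached 5 CPM in 8 or more of the 77 libraries were tested with edgeR 4.0.16 (TMM scaling, quasi-likelihood test, Benjamini-Hochberg adjusted p under 0.05) in R 4.3.3, between states within each region, between regions in 1 fit of 10 groups, and as an interaction. limma 3.58.1 and DESeq2 1.42.0 were alternatives. Socs1 and Socs3 failed the filter and were tested with edgeR's filterByExpr. Floors cover counting error only. The same animals gave all regions, and animal numbers pair libraries; the median correlation over genes of same-animal deviations was −0.0132 to 0.104. Correlations used 100000 permutations. The code was tested on simulated data, where edgeR recovered 99.5% of 200 changed genes in the hypothalamus comparison of 13016 genes. It also called 12 unchanged genes. The changes put in were larger than those of Prlr, Jak2 and Preb, so this checks the code and not whether changes of their size are found. Named genes were the 10 members, up to 4 genes of each list that passed, by smallest p, and the 5 genes most like Prlr. Some genes that this rule names are not reported here. Members and lists were chosen with earlier results of these data known.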

Additional observations from a re-analysis of the deposited data

Results flagged for a closer look

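Among 100 groups of 1 gene, region and state, 16 had a library apart from the rest of its group, where chance gives about 1 in 20. The groups share libraries and animals and are not independent, so that rate is only a rough guide. For Prlr these were animal 421 in the primiparous amygdala (23 CPM, next 12.5), animal 4487 in the virgin hippocampus (67 CPM, next 28.6), animal 425 in the primiparous hippocampus (74.3 CPM, next 22.7) and animal 421 in the primiparous cerebellum (40.9 CPM, next 1.41). The hippocampus and cerebellum libraries are among those rich in choroid plexus genes. The amygdala library of animal 421 had the highest choroid plexus sum of its region, at 167 CPM.

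Prl stood apart in animal 4490 among virgin libraries of the hypothalamus (120 CPM, next 5.73), amygdala (9.41 CPM, next 0.919) and neocortex (26.7 CPM, next 0.586). It stood apart in animal 427 among primiparous libraries of the amygdala (125 CPM, next 20.5), hippocampus (47.9 CPM, next 15), neocortex (75.5 CPM, next 15.6) and cerebellum (90.1 CPM, next 24.7), and in animal 4491 in the virgin cerebellum (2.46 CPM, next 0.821).

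The others were Stat5a in animal 418, lowest in the primiparous hypothalamus (2.08 CPM, next 4.52), Stat5a in animal 414 in the primiparous cerebellum (8.46 CPM, next 6.02), Cish in animal 409 in the virgin cerebellum (4.02 CPM, next 2.69) and Socs3 in animal 4491 in the virgin hippocampus (1.5 CPM, next 0.975).

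The parity effect differed between regions for 2 genes by the interaction test. For Preb the hypothalamus exceeded the amygdala by 0.32, the hippocampus by 0.25 and the cerebellum by 0.26 log2 units. For Jak2 the differences were −0.33, −0.34 and −0.31 log2 units.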

How the results depend on the processing

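In the hypothalamus Prlr was at −0.15 with the animal number series as a covariate, −0.031 with the length and GC correction and −0.27 in 1 fit of 10 groups, and passed in none of these. The value with the length and GC correction lies within its SE of 0. Of Prlr, Jak2 and Preb, 0 passed with the series and 0 with the length and GC correction. Leaving out each library in turn gave −0.32 to −0.23 for Prlr, with 3 to 3 of the 8 genes called, and 0 to 0 in each other region. DESeq2 called 1 of the 8 genes in the hippocampus and 1 in the cerebellum, Prl both times, beside 0.0922% and 3.67% of all genes. Of the 2 genes called in the interactions with the amygdala, hippocampus and cerebellum, 1 (Jak2, not Preb) passed against the hippocampus in 1 fit of 10 groups, and 0 against the cerebellum without the libraries rich in choroid plexus genes. With the animal as a replicate block 1 passed against the cerebellum, where Preb was at 0.24; the block changed no other interaction call.

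Without the 8 libraries rich in choroid plexus genes Prlr in the amygdala minus the hippocampus reversed to 0.96, and in the neocortex minus the cerebellum to 0.95. Over all 77 libraries limma-voom gave 0.093 for the latter. With library size as the only scaling, Preb in the hypothalamus minus the neocortex was 0.0057, and Jak2 was 0.14 in the hypothalamus minus the hippocampus and −0.013 in the amygdala minus the cerebellum. That scaling also moved the calls for the hypothalamus minus the amygdala from 4774 higher and 4461 lower to 6595 and 3182. The cause was not tested. Over all alternatives but the left-out replicates, 476 parity, 376 region and 108 interaction values stayed on the same side of the threshold. Calls were lost in 7 parity, 13 region and 4 interaction values and gained in 2 parity and 5 region values. Values that never passed could change sign, as Prlr did in the hippocampus, from −0.09 to 0.09 without its libraries rich in choroid plexus genes. Prl rests on few reads in the 15 libraries with 0 reads and the 22 with 1 to 9 reads. The deepest library, hippocampus of virgin animal 4488 with 37871854 counted reads, was among those at 0. The part of depth was not tested.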
